A study of Mus musculus with 18 samples.

Results

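The mRNA of 9 genes of cytokine signalling, Cish, Socs1, Socs2, Socs3, Stat3, Stat4, Stat5a, Stat5b and Stat6, was followed through 18 RNA-seq libraries of mouse CD4+ T cells. The genes were chosen by name from the 37991 genes listed in each library, with earlier results of these data known, and all 9 passed the filter on low counts. The mice were Tg4-H2u animals, in which a transgenic TCR recognizes the Ac1-9 peptide of myelin basic protein, and CD4+ cells were enriched from their spleens. Tolerized mice (T) had received 7 subcutaneous doses of the high-affinity 4Y peptide, escalating to 80 μg, and control mice (N, predominantly naive cells) had received PBS. Cells were taken 2 h after a final injection of PBS (N0 and T0) or of 80 μg peptide (NAg and TAg), or were treated in culture for 2 h with PMA at 20 ng/ml plus the calcium ionophore A23187 at 2 μM (NPI and TPI), a pair of agents that bypasses the TCR. Each of the 6 groups had 3 biological replicates. The study used male and female mice aged 6 to 12 weeks, and the sexes were not spread evenly over the groups. Whether animals were pooled within a replicate is not stated in the sources used here. All groups share the transgenic TCR.

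Cytokine receptors without enzyme activity of their own signal through bound JAK kinases, which phosphorylate STAT proteins. The phosphorylated STATs pair, enter the nucleus and bind palindromic sites beside target genes. CISH and the SOCS proteins are encoded by such target genes, and they act back on the receptor or the JAK, which makes them the feedback inhibitors of the pathway. In T cells, IL-2 and the other common gamma-chain cytokines use mainly STAT5, IL-6 and IL-21 use STAT3, IL-12 uses STAT4 and IL-4 uses STAT6.

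Total counts ranged from 10758571 to 24119489 per library and were highest after PI. The T cell markers Cd3e, Cd3d, Cd3g, Cd4, Lck and Cd28 were all detected in each group, but moved with antigen: all 6 were lower in NAg / N0, with a median sum of 27703 normalized counts in N0 and 12860.1 in NAg, 5 were lower in TAg / T0 and 5 were higher in TAg / NAg, and their part in the results after antigen was not tested. Markers of neutrophils stood apart in tolerized mice: the summed normalized count of 9 such genes was 74.4 to 183 in N0 and 1756 to 3139 in T0, 137 to 395 in NAg and 2297 to 4132 in TAg, and 63.7 to 172 in NPI and 396 to 673 in TPI, with 3 of the 9 genes at 0 in all NPI libraries. Reads of Y-linked genes were abundant, with at least 5111 reads, in 9 libraries, which were all 6 PI libraries, 2 of T0 and 1 of TAg, and the others had at most 18, so that in naive cells the sex of the mice changed together with PI. In bulk libraries such as these, fewer cells of a type and less RNA per cell cannot be told apart.

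The start regions of the inhibitor genes are shown because STAT sites are the route by which cytokines are known to reach these genes. Over the 18 libraries, Pearson's r of log2 counts was 0.991 for Cish with Socs1. It was 0.854 for Socs3 with Cish and 0.829 for Socs3 with Socs1. The windows run from 250 bases before to 50 bases after a RefSeq start site (GRCm38.p6), and each was found once in NCBIM37 by exact match. Capitals mark the STAT palindrome TTCNNNGAA, which reads the same on both strands. A window was at hand for 8 of the 9 genes, Socs2 being the exception. The windows of Cish and Socs3 lie wholly inside the annotated genes, which begin further upstream, so the sequence before those outer starts was not searched.
Cish, chr9:107198740-107199039, plus strand (NCBIM37): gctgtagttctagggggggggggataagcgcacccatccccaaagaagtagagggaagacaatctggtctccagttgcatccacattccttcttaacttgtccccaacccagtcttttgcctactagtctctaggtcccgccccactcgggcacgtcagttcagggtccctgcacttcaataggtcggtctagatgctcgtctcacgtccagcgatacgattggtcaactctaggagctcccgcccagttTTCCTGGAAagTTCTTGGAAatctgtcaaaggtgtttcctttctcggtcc
Socs3, chr11:117830631-117830930, minus strand (NCBIM37): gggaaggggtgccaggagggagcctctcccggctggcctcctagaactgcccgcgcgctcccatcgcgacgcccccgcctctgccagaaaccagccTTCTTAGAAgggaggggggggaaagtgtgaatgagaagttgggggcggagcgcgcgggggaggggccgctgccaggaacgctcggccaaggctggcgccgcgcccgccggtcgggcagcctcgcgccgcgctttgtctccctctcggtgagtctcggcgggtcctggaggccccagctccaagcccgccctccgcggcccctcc
Socs1, chr16:10785580-10785879, minus strand (NCBIM37): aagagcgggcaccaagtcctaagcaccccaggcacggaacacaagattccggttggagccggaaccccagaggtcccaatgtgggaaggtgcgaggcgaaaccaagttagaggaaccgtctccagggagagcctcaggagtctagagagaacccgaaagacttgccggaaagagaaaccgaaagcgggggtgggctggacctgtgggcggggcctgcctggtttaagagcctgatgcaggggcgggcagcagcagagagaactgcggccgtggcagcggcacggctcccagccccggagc

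The Cish window held 2 STAT palindromes, TTCCTGGAA and TTCTTGGAA, which began at positions 1 and 12 counted from the RefSeq start site. The Socs3 window held 1, TTCTTAGAA, beginning at position -154, and the Socs1 window held none. At least 1 such palindrome was found in 8.30% and at least 2 in 0.457% of 32851 mouse promoter windows of the same length. No window of Stat3, Stat4, Stat5a, Stat5b or Stat6 held it. The AP-1 site TGANTCA was in no window of these genes and in 7.81% of all windows. The NFAT core GGAAA, searched on both strands as GGAAA and TTTCC, was found 4 times in the Cish window, where 3 of the 4 overlapped a STAT palindrome, and 1 time each in the windows of Socs1 and Socs3, against 61.3% of all windows with at least 1. A match is a sequence description only, and binding was not measured.

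Cish, at chr9:107198357-107205115 of NCBIM37 on the plus strand, encodes the cytokine-inducible SH2 protein that binds IL-2 and related receptors. Its normalized counts were 294, 319 and 417 in N0 and 12465, 11397 and 8490.5 in NAg. In tolerized cells they were 413, 503 and 469 in T0 and 7018, 5796 and 6273 in TAg. Every antigen library lay far above every resting library, and the TAg libraries all lay below the NAg libraries. Cish rose by a log2 fold change of 4.97 ± 0.18 (SE) in NAg / N0, or 31.4-fold (edgeR quasi-likelihood F test, Benjamini-Hochberg adjusted p = 7.1e-13, as for every adjusted p that follows), and by 3.78 ± 0.17 in TAg / T0 (adjusted p = 1.7e-11). After PI the counts were 3755, 4489 and 3713 in NPI and 7244, 5469 and 5970.4 in TPI, so that the order of the states was turned round. Exons of the small antisense genes Gm17040 and Gm17041 overlap Cish on the other strand, and Gm17040, the larger in counts, averaged at most 10.4 normalized counts in any group.

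Socs1, at chr16:10783901-10785629 on the minus strand, encodes an inhibitor that blocks JAK kinases directly and restrains interferon and gamma-chain cytokine signals. It had 182, 244 and 267 normalized counts in N0 and 211, 245 and 259 in T0, and these resting groups overlapped. After antigen it reached 6579.9, 6467 and 5233 in NAg but only 2922, 2778 and 3029.5 in TAg. The rise was 4.72 ± 0.12 on the log2 scale in NAg / N0 (26.4-fold, adjusted p = 1.3e-18) and 3.61 ± 0.12 in TAg / T0 (12.2-fold, adjusted p = 1e-16). PI gave 2926, 3133 and 2726 in NPI and 3241, 2828 and 3073 in TPI, which overlapped each other and the TAg libraries. NAg was thus the only group of the 4 stimulated groups to stand clear of the other 3 for Socs1.

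Socs2, at chr10:94847996-94879814 on the minus strand, encodes the regulator of growth hormone signals and is itself a STAT5 target. It was the least abundant of the 9 genes, with 30 to 472 reads per library, and its values are the least precise. The normalized counts were 37.6, 31.3 and 41.6 in N0 and 79.6, 82.1 and 58.5 in T0. They were 159, 110.4 and 82.5 in NAg against 207, 246 and 205 in TAg, and 77.0, 81.4 and 91.7 in NPI against 381, 291 and 317 in TPI. At rest, after antigen and after PI, every tolerized library lay above every naive library. The gap was 0.99 ± 0.22 in T0 / N0 (adjusted p = 0.0021), 0.90 ± 0.18 in TAg / NAg (adjusted p = 0.00032) and 1.98 ± 0.18 in TPI / NPI (adjusted p = 7.3e-09), on the log2 scale.

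Socs3, at chr11:117827393-117831361 on the minus strand, encodes the inhibitor of gp130 receptors, through which IL-6 signals. Its normalized counts were 840.0, 1028 and 1221 in N0 and 1779.6, 2127 and 1679 in T0. Antigen brought them to 3789.7, 4032 and 2864 in NAg and to 5743, 5410.5 and 6430.0 in TAg. PI brought them to 5273, 5539 and 5263 in NPI and to 10504, 7737 and 8172 in TPI. The tolerized libraries lay above the naive ones in all 3 conditions, and Socs3 was the only inhibitor gene of the 4 whose mean was higher after PI than after antigen in both states. The gap between the states was 0.85 ± 0.16 in T0 / N0 (adjusted p = 0.0015), 0.72 ± 0.15 in TAg / NAg (adjusted p = 0.0016) and 0.72 ± 0.15 in TPI / NPI (adjusted p = 0.0014). Of the 9 neutrophil markers given above, 9 were higher in T0 / N0, 9 in TAg / NAg and 6 in TPI / NPI. With marker scores of neutrophils and macrophages and of erythroid cells as covariates, the gap of Socs3 at rest was 1.16 with an adjusted p of 0.206, that after antigen 0.89 (adjusted p = 0.0179) and that after PI 0.93 (adjusted p = 0.0321).

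**Figure D1:**
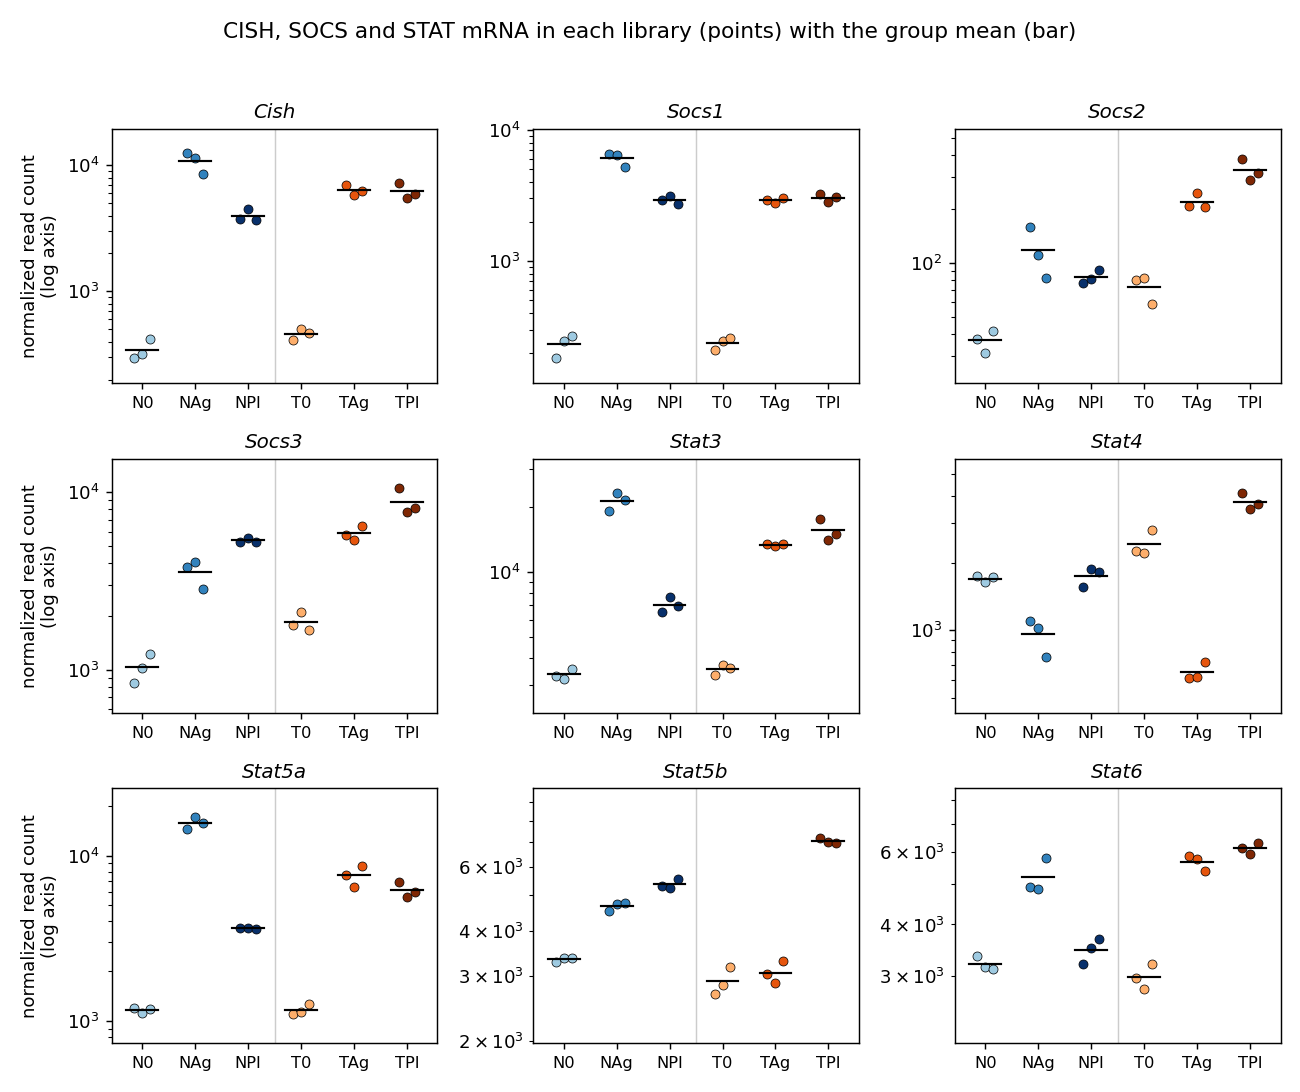
Normalized read counts (log axis) of the 9 genes in each of the 3 libraries of the 6 groups, with the group mean as a bar. Cish, Socs1, Stat3 and Stat5a peak in NAg, Socs2 and Socs3 lie higher in tolerized than in naive libraries in all 3 conditions, and Stat4 falls after antigen in both states.

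Stat5a and Stat5b lie side by side on chromosome 11, Stat5a at chr11:100720665-100746483 on the plus strand and Stat5b at chr11:100642045-100712038 on the minus strand, and encode the near-identical STATs of IL-2 and IL-7 signals. The antigen response of Stat5a was by far the larger. Stat5a had 1203, 1113 and 1183 normalized counts in N0 and 14474, 17034 and 15713 in NAg, and 1101, 1131 and 1269 in T0 against 7613, 6482 and 8704 in TAg. Stat5b had 3289.7, 3362 and 3358 in N0 and 4538, 4723 and 4756 in NAg, and 2689.8, 2833 and 3191 in T0 against 3037, 2875 and 3301 in TAg. Resting and antigen libraries of Stat5a were widely separated in both states, whereas those of Stat5b were separated in naive cells and overlapped in tolerized cells. Stat5a rose by 3.75 ± 0.10 in NAg / N0 (13.5-fold, adjusted p = 7.8e-20) and by 2.70 ± 0.10 in TAg / T0 (6.51-fold, adjusted p = 2.5e-17), while Stat5b rose by 0.49 ± 0.07 in naive cells (adjusted p = 7.5e-07) and had a log2 fold change of 0.08 ± 0.07 in tolerized cells (adjusted p = 0.324). After PI Stat5a stood at 3638, 3655 and 3623 in NPI and 6875, 5657 and 5999 in TPI, and Stat5b at 5291, 5239 and 5557 in NPI and 7189.6, 6997 and 6979 in TPI.

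Compared per kilobase of exon, the level of Stat5a was a fraction of that of Stat5b at rest, with a ratio of 0.272 ± 0.014 (SD, n = 3) in N0 and 0.312 ± 0.005 in T0. The ratio was 2.61 ± 0.17 in NAg and 1.92 ± 0.15 in TAg, so that the more abundant of both transcripts changed from Stat5b to Stat5a within 2 h of antigen. After PI the ratio was 0.527 ± 0.019 in NPI and 0.679 ± 0.058 in TPI, with Stat5b the more abundant on these exon lengths. The lengths, taken over all annotated transcripts, were 7133 bases for Stat5a and 5539 for Stat5b. The protein-coding transcripts held only 4174 different 75-base stretches in Stat5a, against 5463 in Stat5b. A shorter length for Stat5a would raise each ratio, so which transcript was the more abundant after PI is not settled. These ratios are a description, with no test. Of the 75-base stretches, 9.27% in Stat5a and 7.08% in Stat5b also occur in the other gene. How reads from such stretches were counted is not given in the sources used here.

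**Figure D2:**
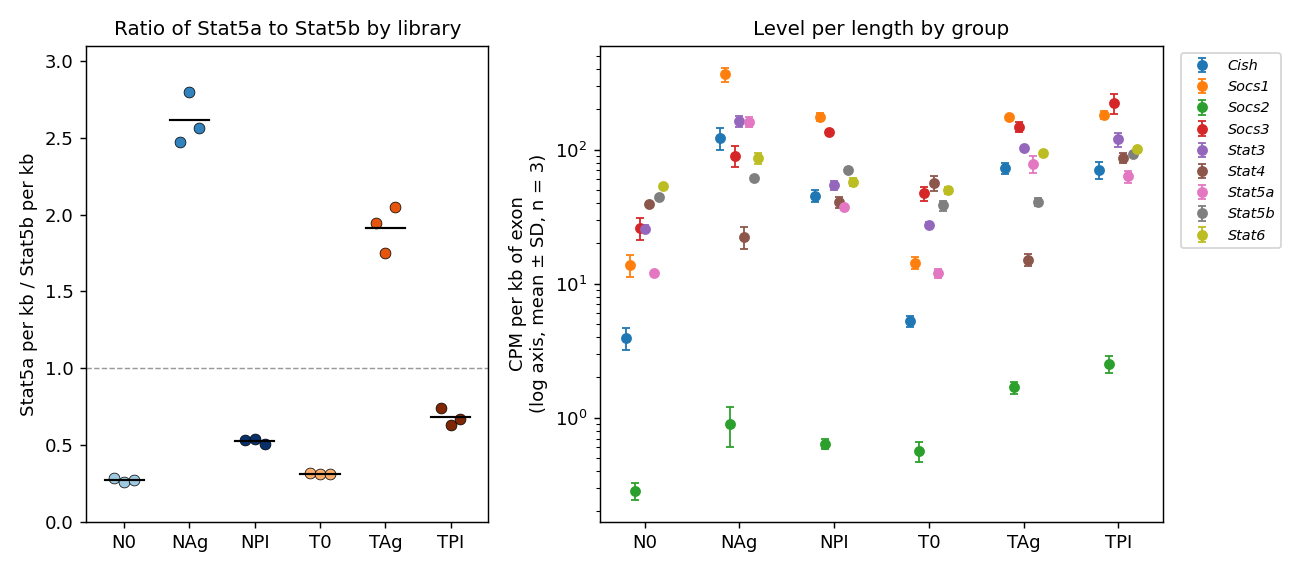
Left, level of Stat5a divided by that of Stat5b, each per kilobase of exon, in the 18 libraries with the group mean as a bar and a dashed line at equality. Right, level of each gene in CPM (count scaled to library size) per kilobase of exon (log axis, mean ± SD, n = 3), with Socs1 highest in NAg at 366 ± 45 and Socs2 lowest in all 6 groups.

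Stat3, at chr11:100746412-100800854 on the minus strand, encodes the STAT of IL-6, IL-10 and IL-21. It had 3298, 3199 and 3577 normalized counts in N0 and 19129.5, 23283 and 21602 in NAg, and 3349.6, 3720.2 and 3598 in T0 against 13459, 13218 and 13417 in TAg. PI gave 6538, 7691 and 6971 in NPI and 17633, 14084 and 15038 in TPI. In naive cells antigen gave the higher values, and in tolerized cells each PI library lay above each antigen library. Stat3 rose by 2.67 ± 0.09 in NAg / N0 (adjusted p = 5.1e-18) and 1.91 ± 0.09 in TAg / T0 (adjusted p = 2.7e-15), and by 1.07 ± 0.09 in NPI / N0 (adjusted p = 1.7e-10) and 2.13 ± 0.09 in TPI / T0 (adjusted p = 4.4e-16). The 3′ ends of Stat3 and Stat5a overlap by 72 exonic bases on opposite strands, and reads there cannot be assigned without strand.

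Stat4, at chr1:52043992-52164032 on the plus strand, encodes the STAT of IL-12 and was the only gene of the 9 to fall after antigen. Its normalized counts were 1741, 1644 and 1723 in N0 and 1103, 1024 and 758 in NAg. In tolerized cells they were 2252, 2219.6 and 2793 in T0 and 609.9, 616 and 724 in TAg. T0 lay above N0 at rest, and yet TAg held the lowest values of all groups. Stat4 fell by 0.83 ± 0.12 on the log2 scale in NAg / N0 (adjusted p = 6.7e-06) and by 1.90 ± 0.13 in TAg / T0 (adjusted p = 9.8e-11). PI did not lower it, with 1560.3, 1879 and 1822 in NPI and 4093, 3480.4 and 3668 in TPI, which were the highest Stat4 values.

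Stat6, at chr10:127080042-127098013 on the plus strand, encodes the STAT of IL-4, and of the 9 genes it had the smallest ratio of highest to lowest group mean. Its normalized counts were 3364, 3151 and 3122 in N0, 4933, 4871 and 5788 in NAg, and 3204, 3509 and 3683 in NPI. In tolerized cells they were 2972, 2797 and 3204 in T0, 5842, 5763 and 5397 in TAg, and 6113, 5928 and 6304 in TPI. The resting groups overlapped, and so did NAg with TAg and N0 with NPI, whereas TPI lay above NPI throughout. Stat6 rose by 0.69 ± 0.08 in NAg / N0 (adjusted p = 1.2e-08), 0.92 ± 0.08 in TAg / T0 (adjusted p = 1.1e-10) and 1.03 ± 0.08 in TPI / T0 (adjusted p = 1.3e-11), and had a log2 fold change of 0.11 ± 0.08 in NPI / N0 (adjusted p = 0.215). It shares 40 exonic bases with Nab2 on the other strand, which rose by 2.84 ± 0.10 in TAg / T0 and reached a mean of 2264 normalized counts in TAg.

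The response to Ag in vivo addresses what a tolerized cell still does when the TCR is engaged again. In naive cells 8 of the 9 genes rose and 1, Stat4, fell, where 32.1% of the 17240 tested genes rose and 33.4% fell. In tolerized cells 7 rose, Stat4 fell and Stat5b was not called, where 29.9% of all tested genes rose and 29.8% fell. The median log2 fold change of the 9 genes was 1.79 in naive and 1.65 in tolerized cells, and that of all tested genes was 0 and -0.05. In both states Cish led, followed by Socs1, Stat5a and Stat3.

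The difference between both responses was tested as an interaction of antigen and state. The difference in log2 fold change, tolerized minus naive, was below 0 for 6 of the 9 genes and above 0 for none, where it was below 0 for 7.09% and above 0 for 14.6% of all tested genes. It was -1.19 ± 0.23 for Cish (adjusted p = 0.0016), -1.11 ± 0.16 for Socs1 (adjusted p = 3.8e-05) and -1.05 ± 0.13 for Stat5a (adjusted p = 3.4e-06). It was -0.76 ± 0.12 for Stat3 (adjusted p = 7.6e-05), -0.41 ± 0.10 for Stat5b (adjusted p = 0.0033) and -1.07 ± 0.17 for Stat4 (adjusted p = 0.00018). For Stat4 the negative sign stands for a deeper fall, and for the other 5 it stands for a smaller rise. Socs2 and Socs3 gave -0.09 ± 0.28 (adjusted p = 0.875) and -0.14 ± 0.22 (adjusted p = 0.734) with errors too wide to show equal responses, and Stat6, with an unadjusted p of 0.0426, gave 0.23 ± 0.11 (adjusted p = 0.139). Stat6 passed the threshold without NAg replicate 3 (adjusted p = 0.0427) or without T0 replicate 3 (adjusted p = 0.0386). Among 6 other SOCS and STAT genes, this difference in antigen response was above 0 for 3 and below 0 for none.

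**Figure D3:**
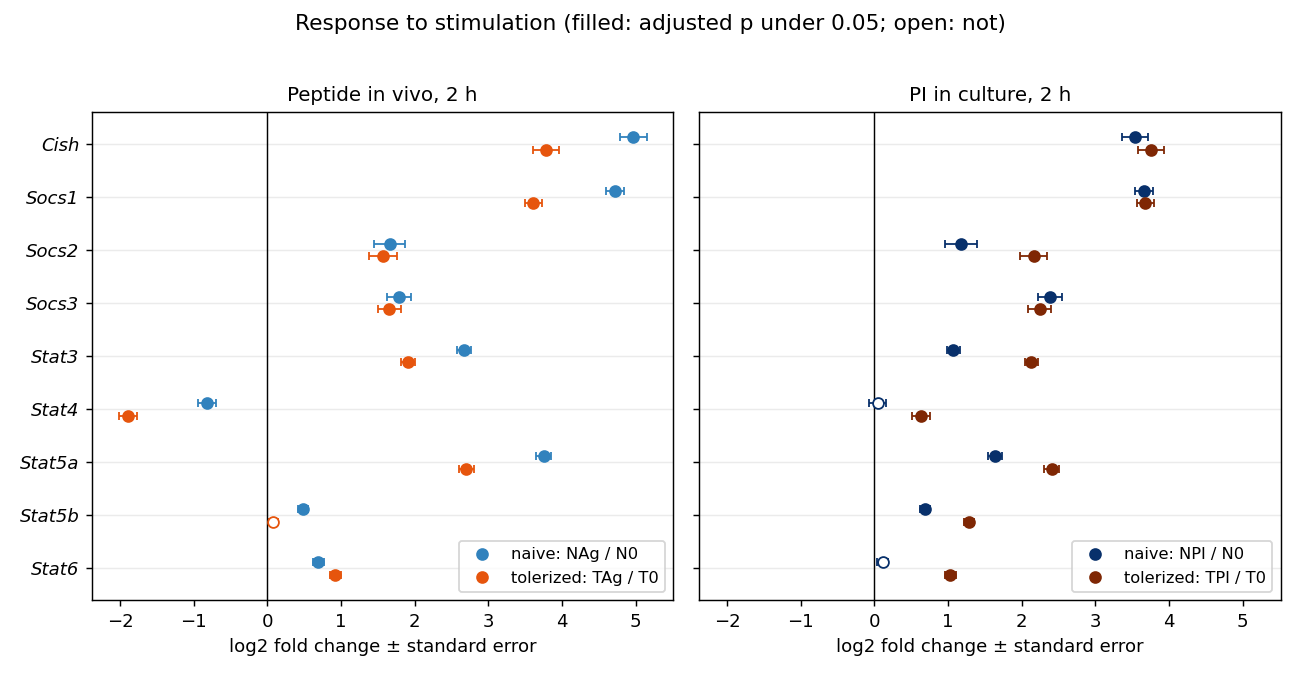
Log2 fold change ± SE of the 9 genes after antigen (left) and after PI (right) in naive and tolerized cells, with filled points at an adjusted p under 0.05. After antigen Cish, Socs1, Stat3 and Stat5a lie further right in naive cells, and after PI Socs2, Stat3, Stat4, Stat5a, Stat5b and Stat6 lie further right in tolerized cells.

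PI treatment, which starts signalling below the TCR, gave another picture. In naive cells 7 genes rose, none fell, and Stat4 (0.04 ± 0.12, adjusted p = 0.775) and Stat6 were not called, where 28.6% of all tested genes rose and 32.7% fell. In tolerized cells all 9 rose, where 32% of tested genes rose and 36.3% fell. The largest rises were again those of Cish, by 3.53 ± 0.18 in naive and 3.75 ± 0.17 in tolerized cells (adjusted p = 7.1e-11 and 1.8e-11), and Socs1, by 3.66 ± 0.12 and 3.68 ± 0.12 (adjusted p = 1.9e-16 and 7.5e-17). Socs3 rose by 2.38 ± 0.16 and 2.24 ± 0.16 (adjusted p = 3.3e-09 and 3.7e-09), and Stat4 rose in tolerized cells by 0.63 ± 0.12 (adjusted p = 0.0001). PI cells had been in culture, whereas resting and antigen-stimulated cells had not, and no group was cultured without PI. In the changes from N0 and T0, PI and the 2 h of culture therefore cannot be told apart. The same holds for the difference between both PI responses. Values after antigen and after PI stand side by side without a test.

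The PI response was larger in tolerized cells for 6 of the 9 genes and smaller for none, where the difference in log2 fold change was above 0 for 12.7% and below 0 for 7.52% of all tested genes. These 6 were Stat3 with a difference of 1.06 ± 0.12 (adjusted p = 1.3e-06), Socs2 with 0.99 ± 0.28 (adjusted p = 0.015), Stat6 with 0.92 ± 0.11 (adjusted p = 1.2e-06), Stat5a with 0.76 ± 0.13 (adjusted p = 0.00017), Stat5b with 0.60 ± 0.10 (adjusted p = 7.2e-05) and Stat4 with 0.59 ± 0.17 (adjusted p = 0.017). The 5 STAT genes of the 9 were thus all among them. Of 6 other SOCS and STAT genes, the difference was above 0 for 2 and below 0 for 2. Socs1 gave 0.02 ± 0.16, Socs3 -0.14 ± 0.22 and Cish 0.22 ± 0.23, with adjusted p from 0.575 to 0.968. Stat3, Stat4, Stat5a and Stat5b had a difference below 0 after antigen and above 0 after PI. Both differences share the N0 and T0 libraries. The call of Stat4 was lost with the sex of the mice as a covariate (0.55, adjusted p = 0.0662), and that of Socs2 without N0 replicate 3 (0.91, adjusted p = 0.0551). When only the 4 groups were fitted, the difference was above 0 for 1880 and below 0 for 2070 tested genes, against 2187 and 1297 with all groups.

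Tolerized and naive cells were also compared directly in each condition. At rest 3 genes were higher in T0, namely Socs2, Socs3 and Stat4 (0.51 ± 0.12, adjusted p = 0.0052), and 1, Stat5b, was lower (-0.20 ± 0.07, adjusted p = 0.0388), where 8.42% of all tested genes were higher and 12% lower with a median of -0.08. The other 5 were not called, and Cish, with 0.43 ± 0.17 and an adjusted p of 0.1, passed with DESeq2 (adjusted p = 0.0216), with only the compared groups fitted (0.0314) and without N0 replicate 3 (0.0394). All 9 neutrophil markers were higher in T0 / N0, and none of these 4 calls was kept in the fit with marker scores, in which the log2 fold change of Socs2 was 0.74 (adjusted p = 0.582), that of Stat4 0.25 (adjusted p = 0.81) and that of Stat5b -0.18 (adjusted p = 0.759). In that fit 40 genes in all were higher and 38 lower, against 1452 and 2067 without the scores. Marker scores and state changed together at rest, and their parts cannot be told apart. With only N0 and T0 fitted, 1401 genes were higher and 962 lower. The call of Stat5b was also lost without N0 replicate 2, N0 replicate 3, T0 replicate 1 or T0 replicate 2, with adjusted p from 0.0839 to 0.172. It was lost as well with the sex of the mice as a covariate (adjusted p = 0.171), with only N0 and T0 fitted (0.180) and without the filter on low counts (0.0633).

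After antigen 6 of the 9 genes were lower in TAg than in NAg and 2, Socs2 and Socs3, were higher, where 18.5% of all tested genes were lower and 20.9% higher. The lower genes were Socs1 (-1.07 ± 0.10, adjusted p = 7e-08), Stat5a (-1.05 ± 0.09, adjusted p = 4.9e-09), Cish (-0.76 ± 0.15, adjusted p = 0.00096), Stat3 (-0.67 ± 0.09, adjusted p = 1.5e-06), Stat5b (-0.61 ± 0.07, adjusted p = 2.3e-07) and Stat4 (-0.56 ± 0.13, adjusted p = 0.0015). Of the inhibitor genes Cish and Socs1 were therefore lower and Socs2 and Socs3 higher in the tolerized cells. Stat6 was 0.12 ± 0.07 higher with an adjusted p of 0.199, and passed without NAg replicate 3 (0.21, adjusted p = 0.0376). All 9 neutrophil markers were higher in TAg / NAg as well, whereas of 10 macrophage markers 6 were lower and 2 higher. In the fit with marker scores each of the 8 calls was kept. That fit joins neutrophil and macrophage markers in a single score, so it cannot separate these cell types, and their part was not tested.

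After PI 8 of the 9 genes were higher in TPI than in NPI and none was lower, where 18.2% of all tested genes were higher and 19.7% lower. Beside Socs2 and Socs3 these were Stat3 (1.14 ± 0.09, adjusted p = 4.9e-10), Stat4 (1.10 ± 0.12, adjusted p = 7.2e-07), Stat6 (0.82 ± 0.08, adjusted p = 8.5e-09), Stat5a (0.76 ± 0.09, adjusted p = 5e-07), Cish (0.64 ± 0.15, adjusted p = 0.0033) and Stat5b (0.40 ± 0.07, adjusted p = 4.7e-05). Socs1 gave 0.06 ± 0.10 with an adjusted p of 0.709. In this pair of groups 6 of the 9 neutrophil markers were higher in TPI, and with marker scores the call of Cish was lost (0.67, adjusted p = 0.128) while the other 7 were kept.

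**Figure D4:**
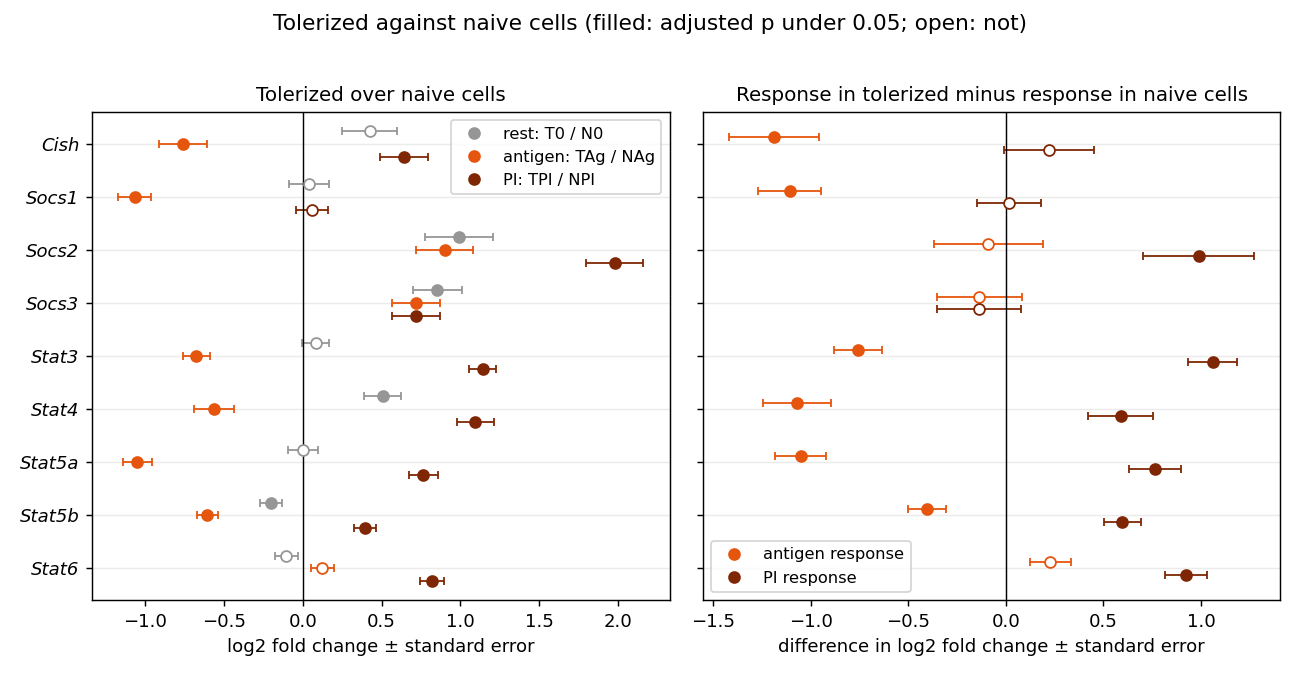
Left, log2 fold change ± SE of tolerized over naive cells at rest, after antigen and after PI, and right, the response in tolerized minus that in naive cells for antigen and PI, with filled points at an adjusted p under 0.05. Socs2 and Socs3 stay right of 0 in all 3 conditions, while Cish, Stat3, Stat4, Stat5a and Stat5b lie left of 0 after antigen and right of it after PI.

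On a scale of level per kilobase of exon, which allows genes to be compared, a STAT gene had the highest level in both resting groups and Socs1 or Socs3 in the 4 stimulated groups. In N0 the highest level was that of Stat6 (53.4 ± 2.2 CPM per kilobase, SD, n = 3), followed by Stat5b (44.1 ± 0.5) and Stat4 (39.6 ± 1.2), and in T0 that of Stat4 (56.3 ± 7.5), which overlapped Stat6 (49.7 ± 3.4) in its libraries. Socs1 led in NAg (366 ± 45), NPI (176 ± 12) and TAg (175 ± 8), and Socs3 led in TPI (223 ± 38). Socs2 was the lowest in every group, between 0.283 ± 0.040 in N0 and 2.53 ± 0.36 in TPI. Exon lengths were taken over all annotated transcripts, and those of Cish, with 6419 bases, span most of the gene, so that its level per kilobase is understated. The length was 1220 bases for Socs1, 9527 for Stat3 and 9532 for Socs2. A shorter length would raise a gene's level, so the order of the genes holds on these lengths only.

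The other parts of the pathway moved with antigen and PI too. Of the 4 JAK kinases, Jak2 rose in each response, by 3.71 ± 0.10 in NAg / N0, 3.46 ± 0.10 in TAg / T0, 1.58 ± 0.09 in NPI / N0 and 2.85 ± 0.10 in TPI / T0. Jak1 fell by 0.75 ± 0.07 in NAg / N0 and rose by 0.82 ± 0.07 in NPI / N0. After antigen 2 of the 4 rose and 2 fell in each state. Of all tested genes 32.1% rose and 33.4% fell in NAg / N0, and 29.9% rose and 29.8% fell in TAg / T0. Jak3, the kinase bound to the common gamma chain, was 0.68 ± 0.09 higher in T0 / N0 (adjusted p = 1.1e-05), 0.62 ± 0.09 higher in TAg / NAg and 1.08 ± 0.09 higher in TPI / NPI. The gap of Jak2 in the PI response, 1.27 ± 0.13 (adjusted p = 2.2e-07), had the sign found for the STAT genes.

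Among 15 tested cytokine genes that signal through STATs, all 15 rose in NAg / N0 and 10 in TAg / T0, where 32.1% and 29.9% of all tested genes rose. In each PI response 12 rose, where 28.6% of all tested genes rose in NPI / N0 and 32% in TPI / T0. In TPI / T0 2 fell, where 36.3% fell. The lowest mean of the 15 in NAg was 4.65 normalized counts. The difference between the antigen responses was below 0 for 1 of the 15 and above 0 for 1, where it was so for 7.09% and 14.6% of all tested genes. Resting counts near 0 made this difference imprecise, with a standard error of 2.59 for Csf2 and 2.99 for Il22, so the few calls do not show equal responses. Compared directly, 5 of the 15 were lower in TAg than in NAg and 3 were higher, where 18.5% and 20.9% of all tested genes were. Among the lower were Il2 (-2.63 ± 0.25, adjusted p = 2.9e-06) and Il3 (-6.64 ± 0.44, adjusted p = 2.5e-08). Il2, which encodes the main growth factor of T cells, averaged 8.38 ± 2.19 normalized counts in N0 and 4452 ± 1209 in NAg, but 717 ± 175 in TAg from 4.54 ± 2.66 in T0. Its mean was 4254 ± 538 in NPI and 8325 ± 1985 in TPI. Il21, a STAT3 cytokine, was higher in TPI than in NPI by 4.03 ± 0.30 (adjusted p = 2.8e-07), and Il10, also a STAT3 cytokine, was higher in tolerized cells by 5.39 ± 0.30 after antigen and 4.95 ± 0.27 after PI. At rest Il10 averaged 1.65 ± 1.51 normalized counts in N0 and 77.3 ± 14.3 in T0. Il3 had no read in any resting library, and averaged 342 ± 101 normalized counts in NAg and 3.31 ± 3.81 in TAg.

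Of 19 receptor chain genes, 9 rose and 9 fell in NAg / N0, where 32.1% of all tested genes rose and 33.4% fell. In TAg / T0 9 rose and 8 fell, where 29.9% rose and 29.8% fell. The median log2 fold change of the chains was 0.50 in naive and -0.07 in tolerized cells. Il2ra, the alpha chain that makes the IL-2 receptor highly sensitive, rose by 6.05 ± 0.26 in NAg / N0 and 5.02 ± 0.25 in TAg / T0, and by 3.59 ± 0.24 in NPI / N0 and 4.12 ± 0.24 in TPI / T0. At rest 10 chains were higher in T0 and 3 lower, where 8.42% and 12% of all tested genes were, and these calls come from the comparison in which the neutrophil markers were higher and marker scores left 40 and 38 genes in all. Il12rb1, a chain of the IL-12 receptor upstream of STAT4, was 1.89 ± 0.16 higher (adjusted p = 1.5e-07) and Il2rb 1.64 ± 0.26 higher (adjusted p = 0.00087). Their antigen responses were smaller in tolerized cells by -1.54 ± 0.22 and -1.69 ± 0.36, as differences in log2 fold change. Il6st, which encodes gp130, differed in both responses, being 0.73 ± 0.08 lower in TAg than in NAg and giving a larger PI response by 1.14 ± 0.11 (adjusted p = 1.1e-07).

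Among further SOCS genes, Socs7 rose by 1.29 ± 0.08 in NAg / N0 and 1.03 ± 0.08 in TAg / T0. Socs5 was higher in tolerized cells in all 3 conditions, by 0.49 ± 0.12 at rest (adjusted p = 0.0051), 1.01 ± 0.12 after antigen and 1.50 ± 0.12 after PI. Among 10 other inhibitors of the pathway, Sh2b3, which encodes the adaptor LNK, rose in both antigen responses but less in tolerized cells, by -0.88 ± 0.11 (adjusted p = 5.2e-06). Pias3, which encodes an inhibitor of STAT3, fell by 3.37 ± 0.19 in NAg / N0 and by 2.66 ± 0.16 in TAg / T0. Of 23 genes known as STAT targets, 19 rose and 4 fell in NAg / N0, where 32.1% of all tested genes rose and 33.4% fell. In TAg / T0 15 rose and 4 fell, where 29.9% rose and 29.8% fell. Their median log2 fold change was 1.99 in naive and 2.08 in tolerized cells. The difference in log2 fold change, tolerized minus naive, was below 0 for 9 and above 0 for 3, where it was so for 7.09% and 14.6% of all tested genes. For Cdkn1a it was -3.02 ± 0.52 (adjusted p = 0.00047).

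Patterns over the 18 libraries are given as a description, with no test, since the libraries share groups and depth. By Pearson's r of log2(normalized count + 1) among 10352 genes, Cish was most like Mfsd2a (r = 0.993), Tlcd1 (0.992) and Sema7a (0.989), and Socs1 was most like Ywhae (0.992), Myc (0.992) and Gm11974 (0.991). For Socs2 these genes were Synpo (0.974), Ahr (0.973) and Icos (0.970), and for Socs3 they were Casp4 (0.979), Il21 (0.975) and Fam83g (0.975). Between the 9 genes, r was highest for Cish with Socs1 (0.991) and Stat3 with Stat5a (0.980), and was 0.888 for Socs2 with Socs3. Stat4 had r from -0.44 to 0.47 with the other genes.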

How the data were processed

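RNA-seq of 18 libraries was analyzed. The authors aligned paired-end reads to mm9 (NCBIM37) with TopHat2 2.1.1, counted them per Ensembl gene with HTSeq 0.9.1, and deposited raw read counts without normalization. The handling of strand and overlapping genes is not given in the sources used here. Symbols, positions and merged exon lengths were taken from GENCODE for NCBIM37, and start regions from RefSeq.

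The deposited counts were scaled by TMM and fitted in R 4.3.3 with edgeR 4.0.16, with 1 mean per group for all 6 groups together. Tests covered the 17240 genes whose average normalized count reached 3 in some group, by the robust quasi-likelihood F test, and every adjusted p is a Benjamini-Hochberg value over them. A gene was called at an adjusted p under 0.05. Normalized counts are reads over the TMM-scaled library size, itself relative to its geometric mean. Standard errors were taken as the log2 fold change divided by the root of F. Biological replicates are named as such by the study. The p-values set a difference against the spread between the 3 samples within groups. That spread was estimated over all 6 groups together, with information shared between genes. No replicate pair agreed within counting noise, with a chi-square per degree of freedom of at least 2.89.

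Alternatives were DESeq2 1.42.0, its size factors in edgeR, the study's combined tests, a rule of at least 2-fold with an average above 50, no filter, only the compared groups, the replicate number as a block, marker scores, sex of the mice, and each library left out in turn. The scripts were tested on simulated data. All 9 genes are named. Of the pathway lists, genes are named that are among the 2 largest called changes of a list in a comparison. The 9 genes and the lists were chosen with earlier results of these data known. A result on 1 further gene of these lists is not reported here.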

Additional observations from a re-analysis of the deposited data

Results flagged for a closer look

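The difference in response between tolerized and naive cells passed edgeR's quasi-likelihood test of the interaction, with Benjamini-Hochberg adjustment over 17240 genes, for 12 pairs of gene and stimulus. After antigen it was -1.11 ± 0.16 (SE, log2 scale) for Socs1, -1.19 ± 0.23 for Cish, -0.76 ± 0.12 for Stat3, -1.07 ± 0.17 for Stat4, -1.05 ± 0.13 for Stat5a and -0.41 ± 0.10 for Stat5b. After PI it was 0.99 ± 0.28 for Socs2, 1.06 ± 0.12 for Stat3, 0.59 ± 0.17 for Stat4, 0.76 ± 0.13 for Stat5a, 0.60 ± 0.10 for Stat5b and 0.92 ± 0.11 for Stat6. Groups of 3 libraries are too small for a test of single outlying libraries, and none was made.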

How the results depend on the processing

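Of 594 log2 fold changes computed with a library left out, 568 kept their direction and their side of the threshold, as did 80 of 81 with DESeq2, 81 of 81 with its size factors in edgeR, 80 of 81 without the filter, 78 of 81 with only the compared groups, 77 of 81 with sex as a covariate and 75 of 81 with marker scores. With a rule of at least 2-fold and an average count above 50, the number of the 9 genes called was 0 in T0 / N0, 2 in TAg / NAg, 3 in TPI / NPI and 1 in the PI interaction, since smaller changes do not meet it, and with marker scores it was 0 in T0 / N0. The number of all genes called in T0 / N0 was 1452 higher and 2067 lower, against 40 and 38 with marker scores and 922 and 912 with sex as a covariate. The directions that turned belong to changes that were not called: Socs1 in the PI interaction was -0.0672 with only the compared groups, Socs2 in the antigen interaction 0.0149 with marker scores, Socs3 in the PI interaction 0.0068 with sex, and Stat5a in T0 / N0 -0.0456 with sex. With a library left out, ranges crossing 0 were -0.0857 to 0.18 for Socs1 in the PI interaction, -0.11 to 0.16 for Socs1 in T0 / N0, -0.30 to 0.19 for Socs2 and -0.28 to 0.0099 for Socs3 in the antigen interaction, -0.27 to 0.0044 for Socs3 in the PI interaction, -0.0293 to 0.13 for Stat4 in NPI / N0, -0.0711 to 0.0386 for Stat5a in T0 / N0 and -0.0078 to 0.13 for Stat5b in TAg / T0. The causes were not tested. Socs2, with 30 to 472 reads per library, is the gene most limited by depth.

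Same-numbered libraries of different groups did not deviate together, with correlations of -0.196 to 0.110 over 45 pairs, of which 2 were above 0.1, so the number was not taken as pairing. With the replicate number as a block the number of genes called in each comparison was 9 in NAg / N0, 8 in TAg / T0, 7 in NPI / N0, 9 in TPI / T0, 4 in T0 / N0, 8 in TAg / NAg, 8 in TPI / NPI, and 6 in each interaction, equal to the numbers without it, and Stat5a in T0 / N0 was -8.8e-05.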

Other observations

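Interferon target genes, a list of 12, are not SOCS or STAT genes but lie downstream of the interferon receptors. After antigen 6 of the 12 rose and none fell in naive cells, and 6 rose and none fell in tolerized cells, where 32.1% and 29.9% of all tested genes rose. After PI 6 rose and 3 fell in naive cells, where 28.6% of all tested genes rose and 32.7% fell, and 5 rose and 5 fell in tolerized cells, where 32% rose and 36.3% fell. In TPI / NPI, where 18.2% of all tested genes were higher and 19.7% lower, 1 was higher and 6 were lower, among the latter Ifi47 (-1.20 ± 0.19, edgeR quasi-likelihood F test, Benjamini-Hochberg adjusted p = 0.00015) and Gbp4 (-1.10 ± 0.13, adjusted p = 2.1e-06), whereas 8 of the 9 SOCS and STAT genes were higher there. In TPI / NPI the gene Usp18, which encodes an inhibitor of the interferon receptor, was lower by -1.83 ± 0.29 (adjusted p = 0.00017).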
